A study of Mus musculus with 6 samples.

Results

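Insulin signalling in mouse liver was described through 10 genes, namely the receptor Insr, the docking proteins Irs1 and Irs2, the PI3-kinase subunit Pik3r1, the kinases Akt1 and Akt2, the transcription factors Foxo1 and Foxo3, the receptor inhibitor Grb14, and Igfbp1. A probe counted as one of theirs when the RefSeq accession in the array's annotation belonged to the gene, and control probes were left out. The rule used no measured value, but the 10 genes were chosen with earlier results of these data known. It found 16 of the 56605 probes and 10 of the 22907 genes with a probe. Of the 10 genes, 5 had 1 probe and 5 had several, and all 10 were well above background on all 6 arrays on every probe.

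Male mice entered the study at 12 weeks of age and stayed on 1 of 2 diets for 28 days, and liver RNA from each mouse was run on its own 1-colour Agilent array. The control group (n = 3) ate regular granulated food only, and in the soy group (n = 3) soy bean powder made up 25% of the food and regular food the other 75%. The labels name no allele or agent beyond the diet, and the strain is not given in the sources used here. The tissue was about 0.5 g of the right lobe of the liver, and only RNA with an integrity number above 8 was used.

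The arrays of the control group had 37010, 36366 and 38163 spots well above background, and those of the soy group had 31308, 31988 and 32498, so the groups did not overlap in this count. No spot was saturated, and pairs of arrays correlated between 0.985 and 0.993 over all probes. The part of the spot count in the results below was not tested. Control 1, control 2 and soy 1 shared a slide (slide 1), control 3 and soy 3 shared another (slide 3), and soy 2 was alone on slide 2. All 10 hepatocyte markers were well above background on all 6 arrays, and in whole liver RNA fewer cells of a type and less RNA per cell cannot be told apart.

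Insulin binds its receptor on the hepatocyte, the receptor phosphorylates the IRS docking proteins, and these recruit PI3-kinase, which activates AKT. AKT in turn phosphorylates the FOXO factors and keeps them out of the nucleus, which switches off genes that FOXO factors drive in the fasted liver. Igfbp1 is the classic gene of this kind: it encodes a secreted protein that binds insulin-like growth factors, is made mainly by the liver, and is repressed by insulin and induced by fasting, glucocorticoids and cell stress.

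The stretch of DNA just before the Igfbp1 start is shown because the DNA element through which insulin represses Igfbp1 was described in the promoter of this gene. The sequence is from RefSeq (GRCm38.p6, plus strand, chr11:7197537-7197786) and holds the 250 bases before the start, with the letters CAAAACA, the core of that element, in capitals.
Igfbp1: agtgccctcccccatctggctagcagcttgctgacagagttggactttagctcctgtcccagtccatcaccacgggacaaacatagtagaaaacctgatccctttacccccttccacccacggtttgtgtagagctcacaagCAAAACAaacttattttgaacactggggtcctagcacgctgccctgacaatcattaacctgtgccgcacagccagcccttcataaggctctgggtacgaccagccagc
The match begins at position -108, counted from the start of the gene. On either strand (TGTTTTG on the other), the same letters lie in the window of the same length of 1724 of 27025 genes, or 6.38%. A match is a description of letters and shows no binding.

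Igfbp1 was lower in the soy group than in the control group. On the log2 scale of quantile-normalized intensity, the single Igfbp1 probe (NM_008341) read 15.14, 14.70 and 14.29 in controls 1 to 3 and 11.74, 12.17 and 12.73 in soy 1 to 3. The groups did not overlap, and the lowest control lay 1.56 log2 units, or 2.95-fold, above the highest soy liver. The means were 14.71 ± 0.43 in the control group and 12.21 ± 0.50 in the soy group (SD, n = 3 each). The change, here and below the soy mean minus the control mean in log2 units, was -2.50 (SE 0.29, 95% interval -3.17 to -1.83), or 5.65-fold lower in soy with an interval of 3.55 to 8.98, and the adjusted p from limma with the Benjamini-Hochberg method was 0.0242.

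The difference was also present in the raw signals. The median spot signals before any correction were 44264, 28219 and 18518 in the control livers and 3288, 3883 and 6732.5 in the soy livers, over local backgrounds of 52 to 60. Each soy spot was therefore far above its background, and the soy values are measured levels, not bounds. Among all probes 21 had a more negative change than Igfbp1, and among 13510 genes well above background on all arrays on their brightest probe, 12 did.

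The size of the Igfbp1 difference was not the same within slide 1 and within slide 3. Within slide 1, soy 1 lay -3.18 from the mean of control 1 and control 2, and within slide 3, soy 3 lay -1.56 from control 3. With the slide as a fixed block the change was -2.49 and the adjusted p was 0.161. In that fit soy 2, alone on slide 2, added nothing to the change. The slides held different mice, so slide and mouse cannot be told apart, and the difference between the slides was not tested. The change stayed between -2.75 and -2.26 in all 18 alternative settings that were tested, and Igfbp1 passed in 12 of them. Leaving out control 1 or control 2 raised the adjusted p to 0.0576 and 0.0849, and leaving out soy 1 or soy 2 raised it to 0.0696 and 0.108, all over the threshold. It was 0.0329 when control 3 was left out and 0.0470 when soy 3 was. An exact two-sided permutation test over the 6 livers gave p = 0.1, the smallest value that 3 against 3 allows.

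**Figure D1:**
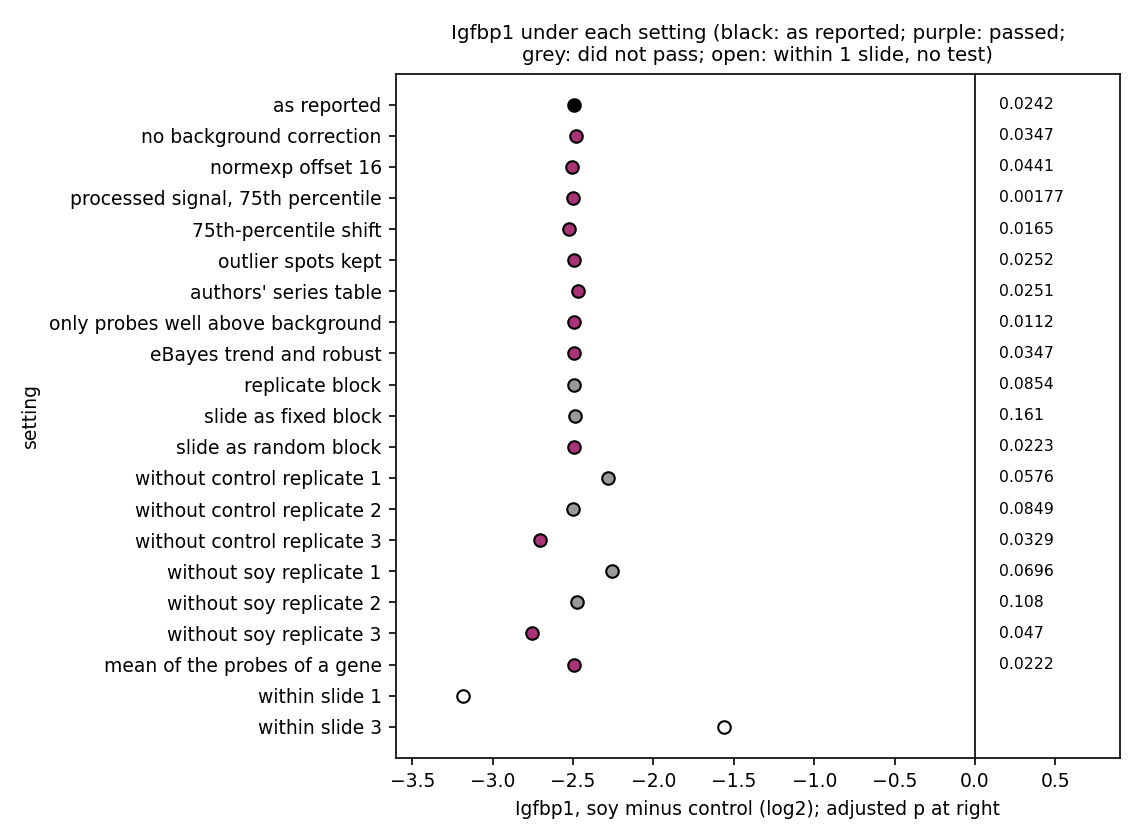
Change of Igfbp1 (log2, soy minus control) in each setting of the processing, with the adjusted p of each fit. The points lie between -2.75 and -2.26 where all or 5 arrays were fitted, the open points are the untested values within slide 1 (-3.18) and slide 3 (-1.56), and the settings differ in which side of the 0.05 threshold the adjusted p falls on.

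Igfbp1 was the only one of the 10 genes that passed, where passing means an adjusted p under 0.05 together with a soy to control ratio over 1.5 or under 0.66. Over the whole array 0.35% of probes passed (198 of 56605, with 118 higher and 80 lower in soy), and 0.533% of genes passed on at least 1 probe. On their brightest probe 9 of the 10 genes were lower in soy, against 51.2% of all genes, and their median change was -0.22 against -0.01 over all genes. The groups did not overlap for 4 of the 10 (Igfbp1, Irs2, Pik3r1 and Foxo3, all lower in soy), against 20.4% of all genes. Of the 16 probes 5 did not overlap, all lower in soy, against 10.3% of all probes that did so in that direction. In addition, 4 of 10 genes had an unadjusted p under 0.05, against 14.2% of all genes. All these counts include Igfbp1, and the 10 genes were chosen with earlier results of these data known. The adjusted p of the 9 genes other than Igfbp1 lay between 0.299 and 0.954.

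**Figure D2:**
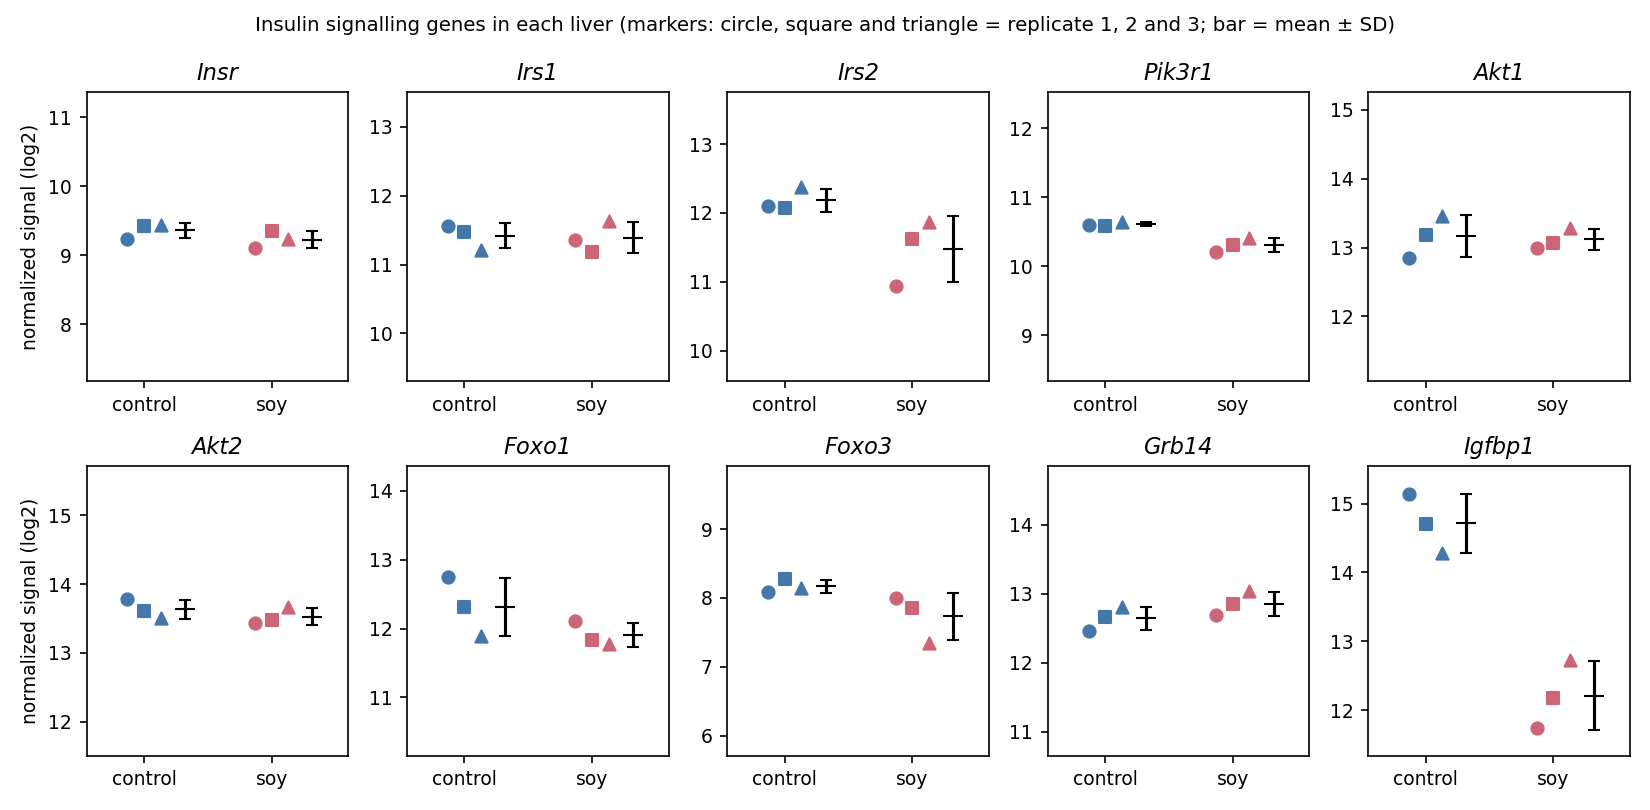
Normalized log2 intensity of the brightest probe of each of the 10 genes in the 3 control and 3 soy livers, with each group's mean and SD. The Igfbp1 points of the groups are 1.56 log2 units apart at their nearest, while those of Irs2, Pik3r1 and Foxo3 are apart by less and those of the other genes overlap.

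At the receptor, the level of Insr did not pass on either probe. Its brighter probe (NM_010568) read 9.24, 9.42 and 9.43 in the control livers and 9.10, 9.35 and 9.23 in the soy livers. The ranges overlapped, and the change of -0.14 (SE 0.11, 95% interval -0.39 to 0.12, adjusted p 0.687) did not pass. The dimmer Insr probe gave -0.13 (adjusted p 0.664), with 7.36, 7.31 and 7.44 in the control livers and 7.15, 7.28 and 7.30 in the soy livers. On that probe the groups did not overlap.

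The docking proteins Irs1 and Irs2 carry the signal from the receptor to PI3-kinase, and neither passed. Irs2 (NM_001081212), itself a gene that insulin represses in liver through FOXO factors, read 12.10, 12.07 and 12.37 in the control livers and 10.94, 11.62 and 11.87 in the soy livers. Every soy liver lay under every control liver, with soy 1 the lowest. The change was -0.70 (SE 0.23, 95% interval -1.24 to -0.17), or 1.63-fold lower with an interval of 1.12 to 2.36, but the adjusted p was 0.301. Within slide 1 it was -1.15 and within slide 3 -0.50.

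Irs1 (NM_010570), the partner of Irs2 that responds less to fasting in liver, read 11.57, 11.48 and 11.21 in the control livers and 11.35, 11.18 and 11.63 in the soy livers. The groups overlapped, and the change was -0.03 (SE 0.15, 95% interval -0.38 to 0.31, adjusted p 0.954). Its sign was not settled, since it was -0.17 within slide 1 and 0.41 within slide 3.

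The Irs2 promoter is shown beside that of Igfbp1 because it holds the same 7 letters. The sequence is from RefSeq (GRCm38.p6, minus strand, chr8:11008930-11009006), spans positions -77 to -1 and has the match on the opposite strand, as TGTTTTG in capitals.
Irs2: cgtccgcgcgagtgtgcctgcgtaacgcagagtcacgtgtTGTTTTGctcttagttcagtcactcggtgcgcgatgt
Of the 9 genes of the 10 with a promoter entry, 3 held CAAAACA on either strand in the 250 bases before the start, namely Igfbp1, Irs1 and Irs2. A second form of the FOXO site, GTAAACA, was in 1 of the 9, Akt1, and in 3.54% of all genes with a window. Its reverse complement, TGTTTAC, was counted as well.

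Below the docking proteins, Pik3r1 encodes the regulatory subunit that binds IRS proteins and holds the catalytic subunit of PI3-kinase. Its probe (NM_001077495) read 10.59, 10.59 and 10.65 in the control livers and 10.21, 10.31 and 10.41 in the soy livers. The groups did not overlap, and the spread within the control group was small (SD 0.033). The change was -0.30 (SE 0.098, 95% interval -0.53 to -0.07, adjusted p 0.299), and it was -0.38 within slide 1 and -0.24 within slide 3.

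The AKT kinases, which carry the signal to metabolism and to the FOXO factors, did not pass on any probe. Akt1 (NM_009652) read 12.85, 13.18 and 13.46 in the control livers and 12.998, 13.07 and 13.29 in the soy livers, which gave a change of -0.05 (SE 0.17, 95% interval -0.43 to 0.34, adjusted p 0.942). The groups overlapped. The dimmer Akt1 probe gave -0.08 (adjusted p 0.894). Akt2, the main AKT of insulin-responsive tissues, had 3 probes that differed in sign. The brightest (NM_001110208) read 13.79, 13.61 and 13.51 in the control livers and 13.43, 13.48 and 13.67 in the soy livers. Its change was -0.11 (SE 0.12, 95% interval -0.38 to 0.17, adjusted p 0.776), and the other 2 probes gave 0.14 and 0.17 (adjusted p 0.854 and 0.744), so no direction can be given for Akt2.

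Foxo1 and Foxo3, transcription factors that AKT restrains, had lower means in the soy livers and did not pass. Foxo1 (NM_019739) read 12.74, 12.31 and 11.90 in the control livers and 12.11, 11.84 and 11.77 in the soy livers. The ranges overlapped between control 3 and soy 1, and the change was -0.41 (SE 0.21, 95% interval -0.90 to 0.08, adjusted p 0.518). The second Foxo1 probe gave -0.39 (adjusted p 0.376).

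Foxo3 (NM_019740) read 8.09, 8.27 and 8.14 in the control livers and 8.00, 7.86 and 7.35 in the soy livers. The groups did not overlap, and soy 3 was the lowest. The change was -0.43 (SE 0.17, 95% interval -0.84 to -0.03, adjusted p 0.397), with -0.19 within slide 1 and -0.79 within slide 3. The second Foxo3 probe gave -0.53 (adjusted p 0.387), and there the groups overlapped. Of the other FOXO factors, Foxo6 was well above background on no array.

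Grb14, an adaptor that binds the activated insulin receptor and inhibits it, was the only one of the 10 with a higher mean in soy on its brightest probe, while 2 of the 3 probes of Akt2 were also higher. It read 12.47, 12.66 and 12.81 in the control livers and 12.69, 12.85 and 13.04 in the soy livers (NM_016719). The groups overlapped, and the change was 0.21 (SE 0.13, 95% interval -0.10 to 0.52, adjusted p 0.607).

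**Figure D3:**
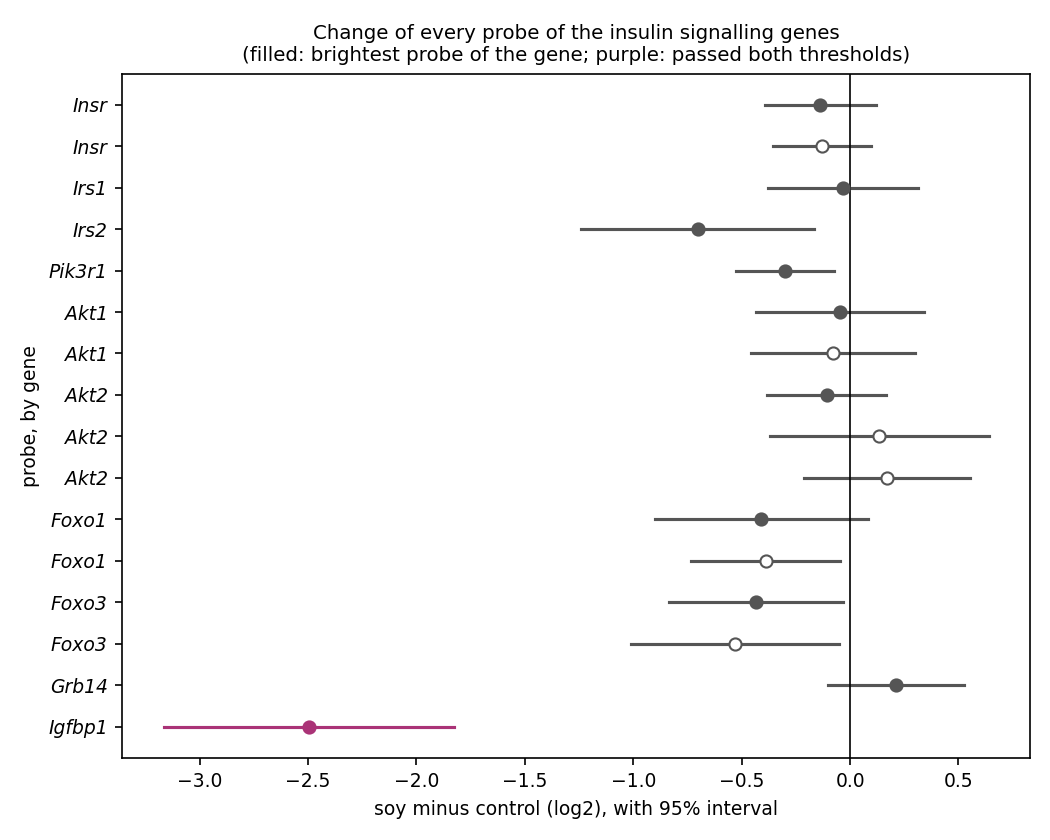
Change (log2, soy minus control) of all 16 probes of the 10 genes, with 95% intervals from limma. Igfbp1 lies at -2.50, 13 of the 16 probes lie below 0, and the probes of Akt2 fall on both sides of it.

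The wider pathway was described by lists that hold 105 genes, of which 95 are not among the 10. Of the 105, 2 passed, against 0.533% of all genes: Igfbp1, which fell, and Pdk4, which rose. On the brightest probe 66 were lower and 39 higher in soy, while 51.2% of all genes were lower. The median change was -0.11 against -0.01 over all genes. The groups did not overlap for 21 that were lower and 6 that were higher, against 10.8% and 9.66% of all genes. In all, 99 of the 105 were well above background on all 6 arrays.

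Upstream of AKT, none of the genes passed. Among the 9 receptors and docking proteins the median change was -0.03. The adaptor Sh2b2 was 9.88, 9.24 and 10.04 in the control livers and 9.13, 8.95 and 9.13 in the soy livers. It did not overlap between the groups, and its change was -0.65 (SE 0.20, adjusted p 0.272). Gab1, another docking protein, gave -0.20 (adjusted p 0.575). The 6 PI3-kinase subunits split evenly, with 3 lower and 3 higher in soy, and the regulatory subunits other than Pik3r1 had positive changes, of 0.27 for Pik3r2 and 0.23 for Pik3r3 (adjusted p 0.372 and 0.512).

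Of the 18 genes of the AKT, mTOR and GSK3 arm 0 passed, and their changes lay between -0.23 and 0.26. The S6 kinase Rps6kb1 (0.26, adjusted p 0.355) and the glycogen synthase kinase Gsk3b (0.26, adjusted p 0.372) were higher in every soy liver than in every control liver, and Rictor, the subunit that defines mTORC2, was lower in every soy liver (-0.15, adjusted p 0.565). The 13 genes of the Ras and MAP kinase arm had a median of -0.06 and 0 passed. Sos2, an exchange factor for Ras, had a change of -0.31 (adjusted p 0.335), and Spry4, an inhibitor of the arm, had one of -0.72 (adjusted p 0.217) and was well above background on 1 of 3 soy arrays.

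The 17 brakes on insulin signalling, which include phosphatases, adaptors and pseudokinases, had a median change of -0.03, and 0 passed. Grb10, the closest relative of Grb14, was well above background on all 3 control arrays and on none of the soy arrays, so only a bound can be given. On the means it was at least 1.37-fold lower in soy, with an adjusted p of 0.101. A second Grb10 probe was well above background on no array. The phosphatase Tns2 (-0.40, adjusted p 0.284) and the pseudokinase Trib1 (-0.38, adjusted p 0.437) were lower in every soy liver. For insulin clearance, the protease Ide gave 0.16 (adjusted p 0.599), and the receptor-associated Ceacam1 and its relative Ceacam2 gave -0.13 and -0.04 (adjusted p 0.839 and 0.941).

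**Figure D4:**
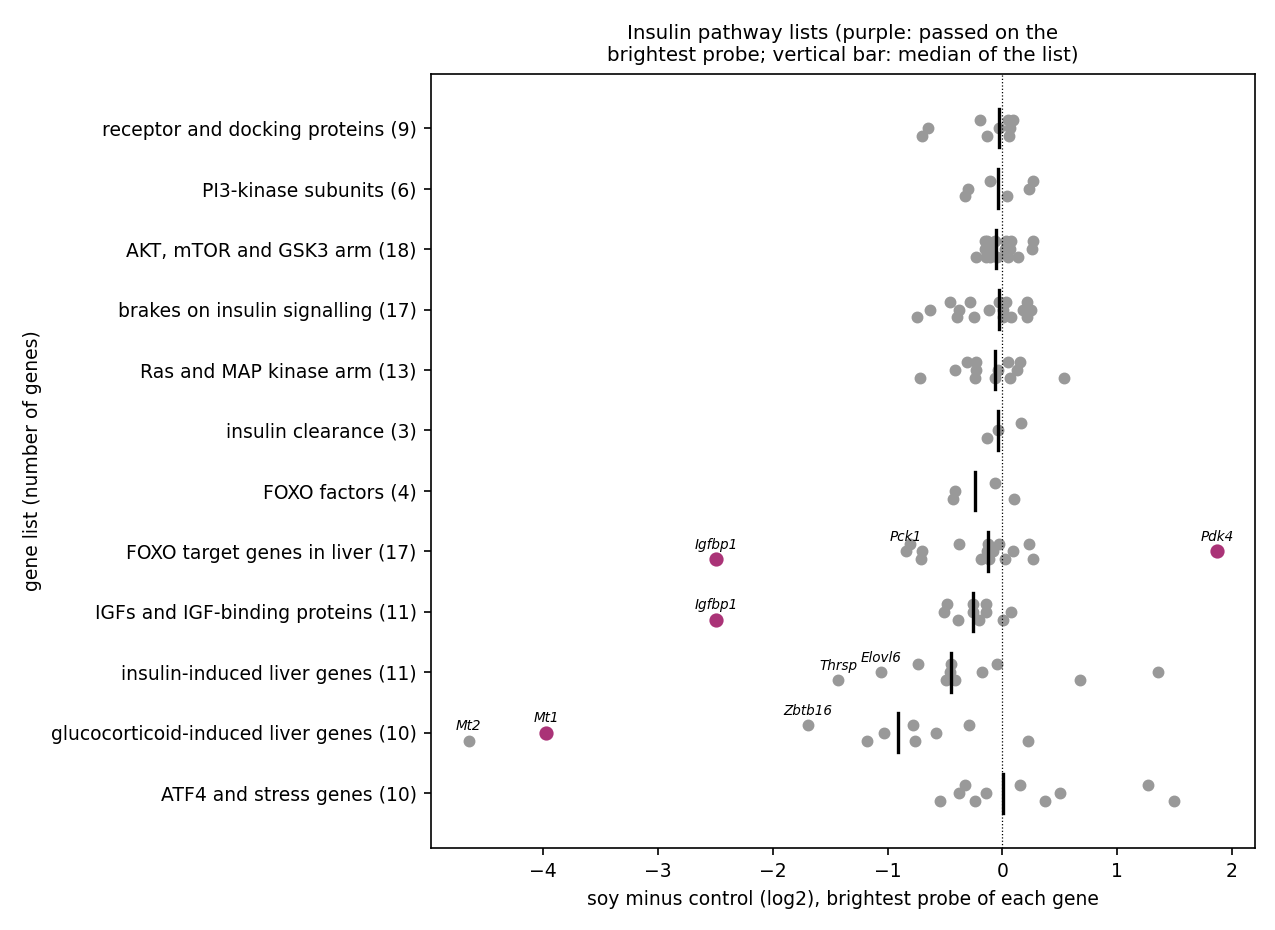
Change (log2, soy minus control) of the brightest probe of each gene in the pathway lists and in the glucocorticoid and ATF4 lists, with 1 point per gene and a line at each list's median. Igfbp1 at -2.50, which is in 2 lists, Pdk4 at 1.87 and the glucocorticoid-induced Mt1 at -3.97 passed and are in purple, and the lists upstream of FOXO have medians near 0.

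Target genes of FOXO factors passed in both directions. Of the 17, 1 rose, 1 fell and 15 did not pass. On the brightest probe 12 were lower and 5 higher in soy, while 51.2% of all genes were lower, and the median was -0.12. Pdk4, the kinase that shuts down pyruvate dehydrogenase in fasting and which insulin represses, had the opposite sign to Igfbp1. Its probe (NM_013743) read 9.02, 8.44 and 8.42 in the control livers and 10.52, 10.64 and 10.33 in the soy livers. The lowest soy liver was above the highest control liver, and the change was 1.87 (SE 0.18, 95% interval 1.45 to 2.29, adjusted p 0.0149), or 3.66-fold higher. It was 1.80 within slide 1 and 1.90 within slide 3. The adjusted p rose to 0.0622, 0.0695 and 0.0532 when soy 1, soy 2 and soy 3 in turn were left out, and it was 0.101 with the slide as a fixed block.

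The gluconeogenic genes of the list, which insulin also represses, had negative changes that did not pass. Pck1, the carboxykinase that makes phosphoenolpyruvate for gluconeogenesis (NM_011044), read 17.81, 17.85 and 17.55 in the control livers and 17.09, 16.75 and 16.85 in the soy livers. The groups did not overlap, and the change of -0.84 (SE 0.13, 95% interval -1.15 to -0.53) had an adjusted p of 0.0576. Over the alternatives the adjusted p ran from 0.00896 with the processed signal, where 13138 of all probes passed, to 0.187 without control 2. With the slide as a fixed block it was 0.160. Pck1 also passed with the 75th-percentile shift (0.0418) and with only probes well above background (0.0306). The same held for trend and robust eBayes (0.0330) and the slide as a random block (0.0468). In every other setting, with each array left out included, its adjusted p was over 0.05. G6pc, the phosphatase that releases free glucose (NM_008061), read 15.45, 14.64 and 15.63 in the control livers and 14.41, 14.46 and 14.71 in the soy livers. There soy 3 lay above control 2, and the change was -0.71 (SE 0.25, adjusted p 0.324). G6pc is named beside the rule for named genes, as a textbook target, and its values had been seen.

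The G6pc promoter is printed because the same insulin element was described there as well. The stretch is from RefSeq (GRCm38.p6, plus strand, chr11:101367502-101367588), spans positions -214 to -128 and has TGTTTTG, the reverse complement of CAAAACA, in capitals.
G6pc: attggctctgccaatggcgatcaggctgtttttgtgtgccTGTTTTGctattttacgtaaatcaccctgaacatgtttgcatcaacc
Among the 13 FOXO target genes with a promoter entry, 4 held CAAAACA on either strand, and 0 held GTAAACA.

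Genes that insulin induces in liver had changes of either sign. Of 11, 0 passed, 9 were lower and 2 higher in soy, while 51.2% of all genes were lower, and the median was -0.45. Lipogenic enzymes of the list had negative changes that did not pass, with -1.06 for Elovl6 (SE 0.28, adjusted p 0.195) and -0.45 for Acaca (adjusted p 0.304), neither with overlap.

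Among the 11 IGFs and IGF-binding proteins, Igfbp1 was the only gene that passed. On the brightest probe 9 of the 11 were lower in soy, against 51.2% of all genes, with a median of -0.26. Igfbp3, the main carrier of IGFs in blood, read 12.86, 12.76 and 13.03 in the control livers and 12.47, 12.56 and 12.47 in the soy livers. Its change was -0.38 (SE 0.11, adjusted p 0.221). Igf1, the growth factor that liver secretes, gave -0.26 (SE 0.092, adjusted p 0.346). Both were lower in every soy liver than in every control liver.

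Glucocorticoids induce Igfbp1 too, so a list of other genes that they induce in liver was set beside it. Of these 10 genes, 1 passed and fell and 0 passed and rose. On the brightest probe 9 were lower in soy, against 51.2% of all genes, and the median was -0.91. Their summed level on the log2 scale was 19.28, 18.02 and 18.88 in the control livers and 16.59, 16.39 and 16.77 in the soy livers, and the sums did not overlap. The sum follows the brightest genes most. Gene by gene, the groups did not overlap for 5 of the 10, all lower in soy, against 10.8% of all genes in that direction. Averaged over all 6 arrays Tat had the highest intensity of the list, with means of 16.34 in the control livers and 15.58 in the soy livers. In the control livers the metallothioneins were above it, with means of 17.07 for Mt1 and 16.99 for Mt2, against 13.10 and 12.34 in the soy livers. The metallothionein Mt1, which metals and stress also induce, read 17.62, 15.99 and 17.60 in the control livers and 12.39, 12.90 and 14.02 in the soy livers. Its change was -3.97 (SE 0.53, adjusted p 0.0369). The dimmer Mt1 probe gave -1.82 (adjusted p 0.39). With 1 array left out, the adjusted p of the brighter probe was 0.0952 for control 1, 0.0398 for control 2, 0.0793 for control 3, 0.110 for soy 1, 0.142 for soy 2 and 0.0598 for soy 3. With all 6 arrays it was 0.122 with the slide as a fixed block, 0.0618 with an offset of 16 and 0.105 with the trend and robust settings of eBayes.

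The other glucocorticoid-induced genes did not pass. Mt2 gave -4.65 (SE 0.77, adjusted p 0.0668) and Fkbp5, a chaperone partner of the glucocorticoid receptor, gave -1.18 (SE 0.27, adjusted p 0.146). For both genes every soy liver was under every control liver. The part of glucocorticoid-induced genes in the Igfbp1 result was not tested.

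ATF4, a factor of the cell stress response, is another inducer of Igfbp1. Of 10 ATF4 and stress genes 0 passed, 5 were lower and 5 higher in soy, and the median was 0.01. The liver hormone Fgf21, well above background on 1 of 3 control arrays, gave 1.49 (SE 0.43, adjusted p 0.241) with no overlap, the asparagine synthetase Asns 1.27 (adjusted p 0.445), and the glutathione-degrading enzyme Chac1 -0.54 (adjusted p 0.394).

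**Figure D5:**
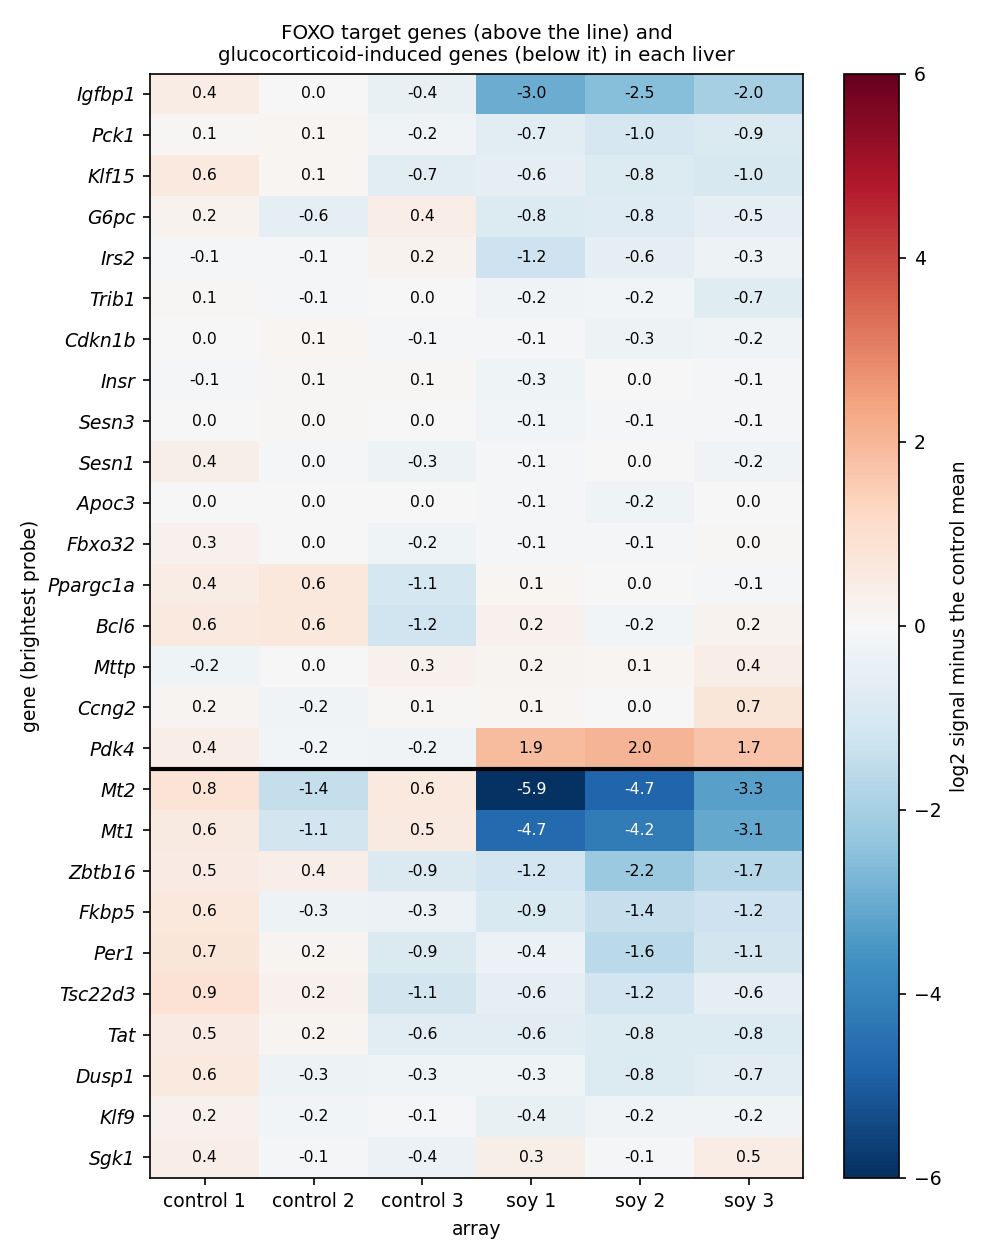
Difference (log2) of each of the 6 arrays from the mean of the 3 control arrays for the FOXO target genes, above the line, and the glucocorticoid-induced genes, below it. Igfbp1 is below the control mean in all 3 soy livers, most in soy 1, and Pdk4 is above it in all 3.

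Markers of other cell types were measured because a change in the makeup of the sample could move liver genes. Of the 10 hepatocyte markers 0 passed, and their summed level was 21.11, 21.18 and 21.14 in the control livers and 21.08, 20.94 and 21.00 in the soy livers. Every soy sum was under every control sum. Albumin (Alb), the brightest of them, gave -0.14. The urea cycle enzymes Ass1 (-0.55, adjusted p 0.174) and Cps1 (-0.47, adjusted p 0.178) were lower in every soy liver, and the lipoprotein Apob gave 0.46 (adjusted p 0.38). The part of the hepatocyte markers in the Igfbp1 result was not tested.

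Pancreas markers matter here because pancreas next to the liver could carry insulin transcripts into the sample. Of these 9, 0 passed and all 9 were lower in soy, against 51.2% of all genes, with a median of -0.26. Only 2 of the 9 were well above background on all 6 arrays, and 3 were on none. Their summed levels were 14.91, 15.52 and 15.27 in the control livers and 14.47, 14.79 and 14.35 in the soy livers. The sums did not overlap. The brightest was the elastase Cela1 (-0.73, adjusted p 0.191). Cpa1 and Prss2 were well above background on 2 control arrays and no soy array, which gives bounds of at least 1.31-fold and 1.29-fold lower in soy, with adjusted p of 0.385 and 0.40. Ins2 and Gcg, the defining hormones of the islet, were well above background on no array, and Ins1, above background on the control arrays only, was lower in soy by a factor of at least 1.11 (adjusted p 0.624). The part of the pancreas markers in the Igfbp1 result was not tested.

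For the other cell types 0 markers passed. The medians were -0.11 over 6 adipocyte markers, of which Adipoq and Plin1 were well above background on no array, 0.24 over 6 Kupffer cell markers, 0.07 over 6 endothelial cell markers, -0.06 over 6 stellate cell markers and -0.01 over 6 cholangiocyte markers. The summed level of the Kupffer cell markers, with Cd5l the brightest, was 14.53, 15.20 and 15.48 in the control livers and 15.00, 15.27 and 15.62 in the soy livers. That of the endothelial cell markers, with Clec4g the brightest, was 15.37, 15.38 and 15.36 against 15.41, 15.60 and 15.48. The former overlapped between the groups, whereas the latter was higher in every soy liver.

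Stellate cell markers summed to 15.30, 15.15 and 15.27 in the control livers and 15.10, 15.10 and 15.22 in the soy livers, with Dcn the brightest. Cholangiocyte markers summed to 11.88, 11.40 and 11.40 in the control livers and 11.76, 11.37 and 11.85 in the soy livers, with Spp1 the brightest and Epcam well above background on no array. Adipocyte markers summed to 12.06, 11.83 and 11.93 in the control livers and 11.69, 11.85 and 11.81 in the soy livers, with Fabp4 the brightest. All these sums overlapped between the groups.

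The markers of smallest adjusted p in these lists were as follows. Among stellate cell markers the collagen Col1a1 gave -0.997 (adjusted p 0.318) without overlap, Ngfr 0.32 (adjusted p 0.665) and Reln -0.23 (adjusted p 0.666). Among endothelial cell markers the receptor Kdr gave 0.30 (adjusted p 0.449), Clec4g 0.20 (adjusted p 0.546) and Cdh5 0.22 (adjusted p 0.594). Of the 6 endothelial cell markers 3 were higher in soy, these ones, and 3 were lower, with changes down to -0.67, and Clec4g was without overlap. Among Kupffer cell markers Vsig4 gave 0.44 (adjusted p 0.491), Cd5l 0.45 (adjusted p 0.538) and the scavenger receptor Marco -0.73 (adjusted p 0.589). Of the adipocyte markers the leptin gene Lep gave -0.21 (adjusted p 0.618), while Cfd exceeded background on 1 control array and 1 soy array. Of the cholangiocyte markers Krt7 and Cftr were well above background on control arrays only, with bounds of at least 1.096-fold and 1.17-fold lower in soy (adjusted p 0.641 and 0.60).

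Genes with a pattern like that of Igfbp1 over the 6 arrays were found by Pearson's r among 13494 genes well above background on all arrays. The highest r were 0.996 for Rprd1a, 0.995 for B130006D01Rik, 0.995 for Shank1, 0.993 for Tbp and 0.990 for Vipas39, and the lowest were -0.998 for Slc25a20, -0.995 for Ldah, -0.995 for Resf1, -0.994 for Rnaseh2c and -0.993 for Nhp2. With 6 arrays in 2 groups such values are common, and 392 genes had an r of at least 0.9 and 352 of at most -0.9. Slc25a20 encodes the carrier that brings acylcarnitines into mitochondria, and Tbp the TATA-binding protein. The points share their arrays and the group difference, so these values describe likeness over these arrays only. Of the pathway genes, Pdk4 had an r of -0.913 with Igfbp1 and Rps6kb1 one of -0.910.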

How the data were processed

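The authors scanned 1 array per mouse with Agilent Feature Extraction 11.5.1.1 and deposited, per the file headers, a median intensity per spot and one for the background around it, neither corrected nor scaled, and a processed signal intensity. A further deposited table holds log2 values by the authors, whose array medians were 7.33 to 7.34 and which differed from the log2 values computed here by at most 0.0705. Median intensities were corrected with normexp (offset 50), control spots dropped, arrays quantile normalized, log2 transformed, outlier spots removed and spots averaged by probe. Soy and control were compared on all 56605 probes in limma 3.58.1 (lmFit, eBayes; R 4.3.3), and p-values were adjusted over all probes with the Benjamini-Hochberg method. Probes passed with adjusted p under 0.05 and a ratio over 1.5 or under 0.66, a gene when 1 of its probes did, and the brightest probe gave its value. A group well above background on no array gives a bound: the other group's mean against, per array, the higher of the lowest signal well above background and the probe's own. Such a bound is on the means and leaves out the spread between mice. The number of arrays, and not a count of reads, limits the precision. The median half-width of the 95% intervals was 0.38 log2 units.

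Symbols came from RefSeq accessions in a table of GRCm38.p6, which named 32989 probes, while the array was annotated on mm9, so gene positions are not given. Promoter sequences were matched by symbol, and 9 of the 10 genes had one. Tables were made with Python 3.11.15 and pandas 2.3.3 and plots with matplotlib 3.10.9. The fit was tested on simulated data.

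The members, the lists and the tests were chosen with earlier results of these data known, and the lists were written from general knowledge. The text names every member and, from each list, genes that passed and the 3 of smallest adjusted p, and the 5 genes most and least correlated with Igfbp1. The alternatives were no background correction, offset 16, the processed signal, a 75th-percentile shift, only probes well above background, outlier spots kept, trend and robust eBayes, the mean of a gene's probes, replicate number or slide as a block, within-slide values, the authors' log2 table, no fold change threshold, and leaving out every array in turn. A few genes chosen in this way are left unreported. The microRNA sequencing and qRT-PCR of the study were not analysed here.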

Additional observations from a re-analysis of the deposited data

How the results depend on the processing

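The Igfbp1 change kept its direction in every setting and its side of the threshold in all but 6, namely the replicate block, the slide as a fixed block, and leaving out control 1, control 2, soy 1 or soy 2. It was -2.50 with the replicate block (adjusted p 0.0854), -2.49 with the slide as a fixed block (0.161), -3.18 within slide 1 and -1.56 within slide 3. With each array left out it ranged from -2.75 to -2.26, with an adjusted p of 0.0329 to 0.108. The number of the 10 genes that passed was 0 with the replicate block and with the slide as a fixed block, and 0 to 1 with each array left out. In the wider lists 2 genes passed, against 8 with the processed signal, 4 with only probes well above background, 0 with the slide as a fixed block, and 0 to 3 with each array left out, with 0 without soy 1 or soy 2 and 1 without control 1, control 2 or soy 3. Over all probes 198 passed, against 77 with an offset of 16, 13138 with the processed signal, 299 with a 75th-percentile shift, 497 with only probes well above background, 78 with the replicate block, 25 with the slide as a fixed block, and 25 to 203 with each array left out (102, 71, 50, 25 and 27 without control 1, control 2, soy 1, soy 2 and soy 3). Of the probes that passed 59.6% were higher in soy, against 90.8% with the processed signal and 48.0% with the slide as a fixed block. The median of all probes was 0.13 with the processed signal and with the 75th-percentile shift, against -0.01. With the replicate block the adjusted p of Mt1 was 0.0524, and Thrsp passed (-1.92, adjusted p 0.0487).

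Irs1 turned positive with the slide as a fixed block (0.0793), without control 1 (0.0403) and without soy 2 (0.0695), ranged from -0.15 to 0.0695 with each array left out, and was 0.41 within slide 3. Akt1 turned positive without control 3 (0.10) and without soy 1 (0.0148), with a range of -0.20 to 0.10 over the arrays left out, and Akt2 with the mean of its probes (0.0659). Akt2 was -0.26 within slide 1 and 0.16 within slide 3, Irs2 -1.15 and Pik3r1 -0.38 within slide 1, and Foxo3 -0.79 within slide 3. The cause of these shifts was not tested. The labels do not say that equal numbers pair mice: the deviations of same-numbered arrays correlated at 0.122, -0.061 and 0.097, and control 3 correlated best with soy 2. The alternative with the mean signal was not run, since the median is the only raw signal in the files used here. With 3 mice a group, the median half-width of the members' 95% intervals was 0.38 log2 units.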

Other observations

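The genes below were chosen from the lists after their values were seen. Zbtb16, a transcription factor induced by glucocorticoids, gave a log2 difference (soy minus control) of -1.70 (SE 0.40, adjusted p 0.153) without overlap between the groups, and Per1, a clock gene that the same hormones induce, one of -1.04 (adjusted p 0.431). Ppargc1a, a coactivator of gluconeogenic genes with FOXO1, gave 0.02 (adjusted p 0.992), and Klf15, another factor of the fasted liver, -0.81 (SE 0.29, adjusted p 0.347) with overlap.

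Among the insulin-induced genes, Srebf1, the gene of the SREBP-1 factors, gave 0.68 (adjusted p 0.512) and Fasn -0.18. Thrsp gave -1.43 (adjusted p 0.306) on 5 arrays, since its spot on control 1 was an outlier and the fit dropped it, and -1.33 on its other probe. With all arrays fitted, Trib3, a pseudokinase that binds AKT, gave -0.75 (SE 0.45, adjusted p 0.588) with overlap and did not pass. Control 3 read 9.49, under every soy liver (10.07, 9.96 and 9.74 in soy 1, soy 2 and soy 3). The change was -1.19 within slide 1 and 0.25 within slide 3. When control 3 was left out, Trib3 passed, at -1.34 (adjusted p 0.0470).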
